A study of Mus musculus with 7 samples.

Results

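Binding of sperm to the egg and fusion of both membranes depend on a small set of sperm surface proteins. Genes of several of them and of related family members, 10 in all, were examined here in testis of mice lacking *Rlim*. The genes were chosen by name, as the rows of the testis expression table for *Izumo1*, *Izumo2*, *Izumo3*, *Izumo4*, *Spaca6*, *Tmem95*, *Dcst1*, *Dcst2*, *Spaca4* and *Spesp1*. All 10 were found among the 19719 genes of the table. RNA of total testis had been sequenced from 3 fl/Y males, which carry a floxed *Rlim* allele and are called WT in the labels, and from 4 cKO/Y Sox2-Cre males, in which a Sox2-Cre transgene deletes *Rlim* throughout the body including the germline. *Rlim* is X-linked and encodes a ubiquitin ligase. The animals were littermates aged 8 weeks, and the labels give the strain as C57BL/6. Whether the fl/Y males carried the Cre transgene, and whether each library stands for 1 animal, is not stated in the sources used here, so that p-values describe the spread between these libraries. The labels also give 2 batches. Replicate 3 of fl/Y and replicates 3 and 4 of cKO/Y Sox2-Cre made up batch 1, and the remaining 4 libraries, replicates 1 and 2 of each genotype, made up batch 2. The question of the comparison was which transcripts of the testis change when *Rlim* is absent.

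These proteins are made in spermatids, the cells that build the acrosome, the secretory vesicle that caps the sperm head. IZUMO1 lies in the acrosomal membrane, moves to the sperm surface when the acrosome empties, and binds the receptor JUNO (the product of *Izumo1r*) on the egg. SPACA6, TMEM95, DCST1 and DCST2 are further sperm membrane proteins without which mouse sperm reach the egg membrane but do not fuse with it. SPACA4 is a lipid-anchored protein of the acrosomal membrane that serves binding to the zona pellucida, the coat of the egg, and SPESP1 belongs to the equatorial segment, where fusion begins. In a testis lysate, RNA of these genes reports on spermatids before the sperm leave the tissue, and fewer cells of a type cannot be told apart from less RNA per cell in such bulk samples.

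Values are given in CPM, deposited as read counts over a scaled library size. Depth ran from 2822168 to 8633399 reads over the genes of the table, and a count of 0 leaves room for up to 3 reads, which is 0.301 to 0.945 CPM (counting error only). The 10 genes rest on 23 reads (*Tmem95*) to 2115 reads (*Spesp1*) in a library. Mitochondrial genes took 5.88% to 21.4% of the values, and most of this was the ribosomal RNA gene *mt-Rnr2*, with 5.06% to 17.7%. *Rlim* itself was at 99.5, 70.7 and 61.5 CPM in fl/Y replicates 1 to 3 and at 32.6, 35.7, 21.7 and 20.7 CPM in the cKO/Y Sox2-Cre replicates 1 to 4, without overlap of the groups. Its log2 fold change was -1.38 (standard error 0.16, adjusted p = 0.0087 from limma). That call was lost without fl/Y replicate 1 (adjusted p = 0.154 from limma), without fl/Y replicate 3 (0.634), in batch 2 alone (0.872), with the replicate number as a block in place of the batch (0.307), and in a fit without the batch (0.921), and over the 19 alternatives of the processing the adjusted p ran from 2.61e-08 in DESeq2 to that value.

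The genes lie on 7 chromosomes, and positions are given for GRCm38 as the table lists them. *Izumo2* (chr7:44708742-44719844), *Izumo1* (chr7:45621811-45628823) and *Spaca4* (chr7:45725107-45725813, minus strand) share chromosome 7, and 96.3 kb separate *Izumo1* from *Spaca4*. *Spaca4* is a single exon inside the span of *Fam83e*, a gene on the opposite strand, with no exon base in common. *Izumo3* (chr4:92144329-92147234, minus strand), *Izumo4* (chr10:80702184-80705373), *Tmem95* (chr11:69876684-69878018, minus strand), *Spesp1* (chr9:62270729-62282208, minus strand) and *Spaca6* (chr17:17830719-17843009) stand alone. *Dcst1* (chr3:89350219-89365253, minus strand) and *Dcst2* (chr3:89361975-89377549, plus strand) form a head-to-head pair. Their spans share 3279 bases, while no exon base of one lies in an exon of the other in the GENCODE M21 annotation. In the RefSeq promoter table (GRCm38.p6), which starts *Dcst2* farther downstream than the expression table does, 65 bases lie between both starts. This stretch, chr3:89365254-89365318 on the plus strand, is shown because by the RefSeq starts it lies upstream of both genes at once. In the expression table it lies inside the span of *Dcst2*.
Between the starts of Dcst1 and Dcst2: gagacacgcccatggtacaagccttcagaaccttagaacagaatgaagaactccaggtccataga

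RefSeq promoter windows were at hand for 9 of the 10 genes, each covering 250 bases before and 50 bases after the start. They were searched on both strands for the cAMP response element TGACGTCA, the motif through which CREM, a transcription factor of spermatids, binds DNA. *Izumo1* was the single gene of the 9 with this motif, whose first base lies at position -96 from the start. Of all 32851 promoter windows, 1.79% hold it. Its 5-letter core TGACG, which is part of the longer motif, was present in 3 of 9 windows (*Izumo1*, *Tmem95* and *Spesp1*), against 20.8% of all windows. The 250 bases upstream of *Izumo1*, which holds the motif, and of *Izumo3*, the family member that varied most between libraries, are printed 5′ to 3′ on the strand of the gene, with the response element in capitals. The window of *Izumo1* is chr7:45621561-45621810 on the plus strand, and that of *Izumo3* is chr4:92147222-92147471 on the minus strand, with no match to either motif. A match is a description of letters, and binding was not measured.
Izumo1 upstream: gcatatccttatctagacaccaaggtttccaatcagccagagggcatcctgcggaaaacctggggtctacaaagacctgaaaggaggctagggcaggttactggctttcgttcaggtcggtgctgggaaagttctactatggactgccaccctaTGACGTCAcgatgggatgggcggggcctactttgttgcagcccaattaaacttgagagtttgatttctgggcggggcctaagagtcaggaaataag
Izumo3 upstream: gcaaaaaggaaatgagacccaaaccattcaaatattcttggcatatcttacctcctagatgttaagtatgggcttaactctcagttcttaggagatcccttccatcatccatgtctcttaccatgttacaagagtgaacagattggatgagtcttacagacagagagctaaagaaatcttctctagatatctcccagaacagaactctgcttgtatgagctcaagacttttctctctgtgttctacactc

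All 10 genes were expressed in every testis, and none passed the test between the genotypes. The 19400 genes above 1 CPM in 3 or more libraries entered limma, which fits a linear model to each gene and moderates its variance over all genes, on the scale of log2(CPM + 0.5) and with a term for the batch. All 10 genes were among them, and 0 were called at an adjusted p under 0.05, beside 0.00515% of all genes tested, which is *Rlim* alone. At an unadjusted p under 0.05 there were also 0 of the 10 in limma, against 2.58% of all genes. The quasi-likelihood test of edgeR and DESeq2 on the recovered reads likewise called 0 of them, with 0 at an unadjusted p under 0.05. The ranges of the genotypes overlapped for 10 of 10 genes, while 2.92% of all genes tested had ranges that did not overlap. The log2 fold change was below 0 for 6 genes and above 0 for 4, with a median of -0.030 beside -0.0055 over all genes tested. Every adjusted p of the 10 was 1.00 from limma, so the size of each difference and its 95% interval are given instead.

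**Figure D1:**
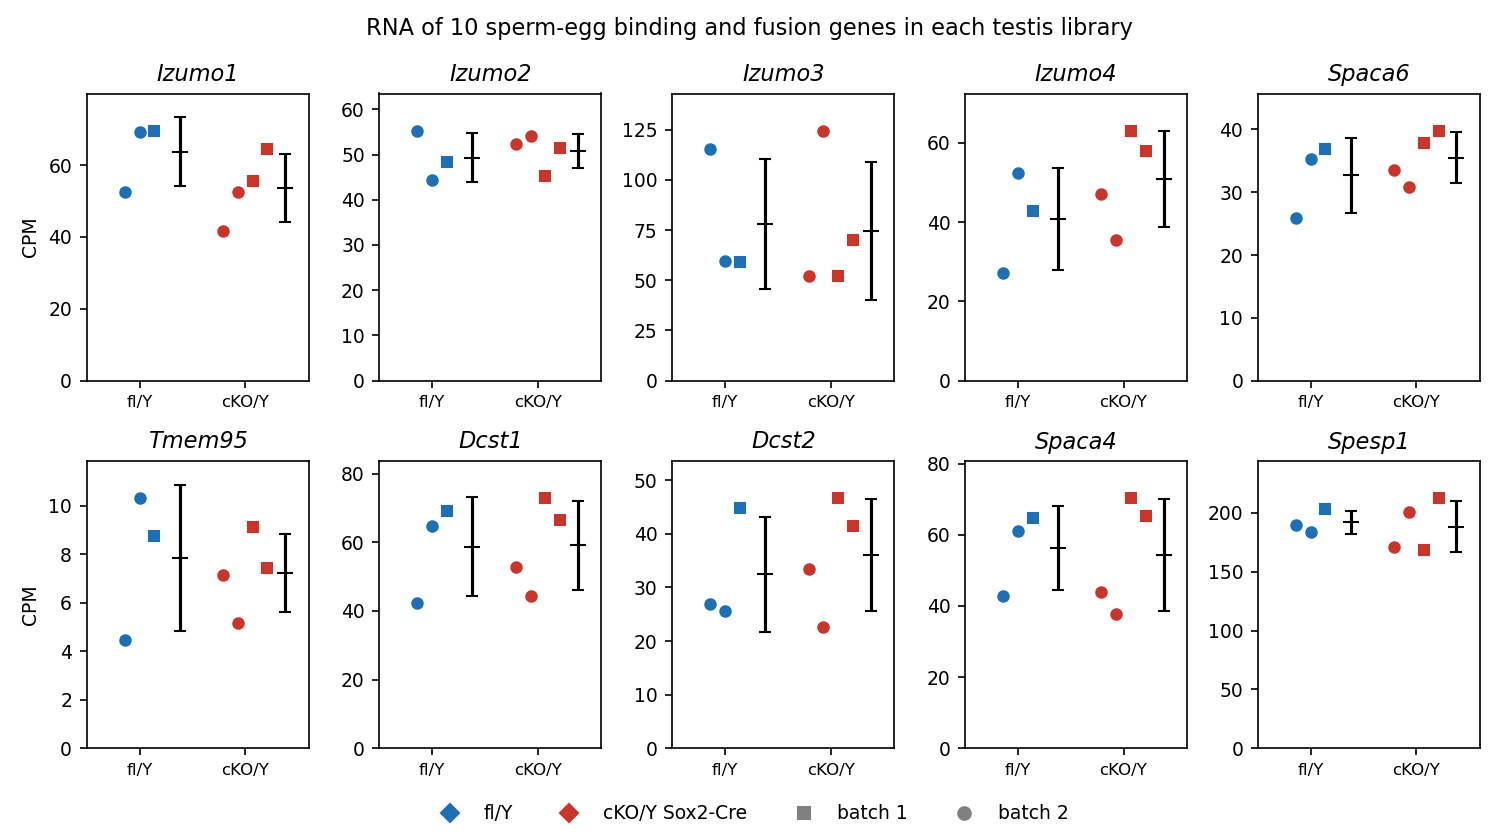
CPM of the 10 genes by library, in blue for fl/Y and in red for cKO/Y Sox2-Cre (marked cKO/Y on the axis). Squares are batch 1, circles are batch 2, and the bars show the mean with its SD. The points of both genotypes overlap for every gene, and *Izumo3* stands out by 1 high library in each genotype, at 115.6 and 124.4 CPM.

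Of the *Izumo* family, *Izumo1*, the ligand of the egg receptor, had the lowest p of the 10 genes. It was at 52.6, 69.1 and 69.5 CPM in fl/Y replicates 1 to 3 and at 41.6, 52.6, 55.4 and 64.4 CPM in the cKO/Y Sox2-Cre replicates 1 to 4. The highest cKO/Y Sox2-Cre library lies below 2 of the 3 fl/Y libraries, and the lowest fl/Y library lies among the cKO/Y Sox2-Cre values. The fl/Y mean was 63.7 ± 9.63 CPM (SD, n = 3), and the cKO/Y Sox2-Cre mean was 53.5 ± 9.43 CPM (SD, n = 4). The log2 fold change was -0.30 (standard error 0.16, unadjusted p = 0.0785 from limma), which ranks 812 of 19400 genes by p. The 95% interval runs from -0.65 to 0.039, or from 0.639 to 1.03 as a fold of cKO/Y Sox2-Cre over fl/Y. Within batch 1 the log2 fold change was -0.22 and within batch 2 it was -0.36. The sign was the same under 19 of 19 alternatives of the processing, whose values ran from -0.39 to -0.19. In the annotation, 21.9% of the exon bases of *Izumo1* also belong to *Rasip1*, a gene on the same strand, and how reads in those bases were assigned is not given in the sources used here.

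*Izumo2* encodes a second family member with an Izumo domain, whose part in fertilization is less well known. It was at 55.2, 44.4 and 48.3 CPM in fl/Y replicates 1 to 3 and at 52.4, 54.0, 45.3 and 51.4 CPM in the cKO/Y Sox2-Cre replicates 1 to 4. This was the narrowest spread of the 10 genes, with the highest library at 1.24 times the lowest, and the values of both genotypes interleave. The log2 fold change was 0.062 (standard error 0.15, 95% interval -0.26 to 0.38).

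*Izumo3*, which is needed to form the acrosome, was at 115.6, 59.4 and 59.1 CPM in fl/Y replicates 1 to 3 and at 52.1, 124.4, 52.0 and 70.0 CPM in the cKO/Y Sox2-Cre replicates 1 to 4. In each genotype 1 library, fl/Y replicate 1 or cKO/Y Sox2-Cre replicate 2, thus stood far above the other 5 libraries, which reached at most 70.0 CPM. The log2 fold change was -0.013 (standard error 0.27), and its interval of -0.58 to 0.55 is the second widest of the 10. The residual SD of *Izumo3* on the log2 scale, 0.576, lies at the 88.8th percentile of all genes tested.

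*Izumo4* encodes a family member without a membrane anchor. It was at 27.1, 52.5 and 42.7 CPM in fl/Y replicates 1 to 3 and at 47.1, 35.5, 63.0 and 57.8 CPM in the cKO/Y Sox2-Cre replicates 1 to 4. The lowest values of each genotype were those of fl/Y replicate 1 and cKO/Y Sox2-Cre replicate 2, the same libraries in which *Izumo3* was highest. Between means of 40.8 ± 12.8 and 50.9 ± 12.2 CPM, the log2 fold change was 0.27 (standard error 0.21, unadjusted p = 0.224 from limma, 95% interval -0.18 to 0.71). Within batch 1 it was 0.49 and within batch 2 it was 0.11. It came to 0.54 when fl/Y replicate 2 was left out, with an unadjusted p of 0.00991 and an adjusted p of 1.00 from limma. Without fl/Y replicate 1 it was 0.069. The lowest adjusted p of this gene over the 19 alternatives was 0.791 from limma, without cKO/Y Sox2-Cre replicate 2, where the log2 fold change was 0.40.

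Among the fusion factors, *Spaca6*, whose immunoglobulin-fold product partners IZUMO1 on sperm, was at 25.8, 35.3 and 36.9 CPM in fl/Y replicates 1 to 3 and at 33.5, 30.9, 37.8 and 39.7 CPM in the cKO/Y Sox2-Cre replicates 1 to 4. The lowest library was fl/Y replicate 1, and the other 6 lay between 30.9 and 39.7 CPM. The log2 fold change was 0.082 (standard error 0.16, 95% interval -0.27 to 0.43). *Spaca6* carries the microRNA genes *Mir99b*, *Mirlet7e* and *Mir125a* in its GENCODE span, and the exons shared with them are 0.665% of its bases.

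*Tmem95*, a membrane protein gene whose loss leaves mouse males sterile, had the fewest reads of the set, from 23 to 74 a library. It was at 4.46, 10.3 and 8.75 CPM in fl/Y replicates 1 to 3 and at 7.13, 5.18, 9.13 and 7.43 CPM in the cKO/Y Sox2-Cre replicates 1 to 4. Both ends of the range were fl/Y libraries. The interval was the widest of the 10, at -0.72 to 0.47 around a log2 fold change of -0.12 (standard error 0.28). As a fold of cKO/Y Sox2-Cre over fl/Y it runs from 0.608 to 1.39.

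The DCST proteins share a domain with DC-STAMP, a protein of cell fusion in osteoclasts. *Dcst1* was at 42.4, 64.6 and 69.2 CPM in fl/Y replicates 1 to 3 and at 52.7, 44.3, 72.7 and 66.5 CPM in the cKO/Y Sox2-Cre replicates 1 to 4, with a log2 fold change of -0.066 (standard error 0.17, 95% interval -0.42 to 0.29). *Dcst2* was at 27.0, 25.6 and 44.8 CPM in fl/Y replicates 1 to 3 and at 33.5, 22.5, 46.6 and 41.5 CPM in the cKO/Y Sox2-Cre replicates 1 to 4, with a log2 fold change of 0.026 (standard error 0.17, 95% interval -0.34 to 0.39). For both genes the 3 libraries of batch 1 were above the 4 of batch 2, whatever the genotype. The exons of *Dcst1* share 24.2% of their bases with a pseudogene on the opposite strand, *Gm10702*, which has no row in the table, and the strand setting of the counting is not stated in the sources used here.

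Of the acrosomal membrane genes of binding, *Spaca4* was at 42.8, 61.2 and 64.7 CPM in fl/Y replicates 1 to 3 and at 44.0, 37.9, 70.2 and 65.2 CPM in the cKO/Y Sox2-Cre replicates 1 to 4. Here too every library of batch 1 was above every library of batch 2. The log2 fold change was -0.17 (standard error 0.17, 95% interval -0.53 to 0.19). Within batch 1 it was 0.064 and within batch 2 it was -0.32. *Spesp1* had the highest CPM of the set, at 189.6, 183.8 and 202.9 in fl/Y replicates 1 to 3 and at 171.2, 200.7, 168.5 and 212.3 in cKO/Y Sox2-Cre replicates 1 to 4. Its mean was above those of 95.6% of all genes tested. The cKO/Y Sox2-Cre values enclose the fl/Y values. At a log2 fold change of -0.046 (standard error 0.14) it had the narrowest interval of the 10, which is 0.785 to 1.19 as a fold of cKO/Y Sox2-Cre over fl/Y. Summed over all 10 genes, fl/Y testes reached 612 ± 32.5 CPM (SD, n = 3), and those of the cKO/Y Sox2-Cre males 610 ± 58.0 CPM (SD, n = 4).

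**Figure D2:**
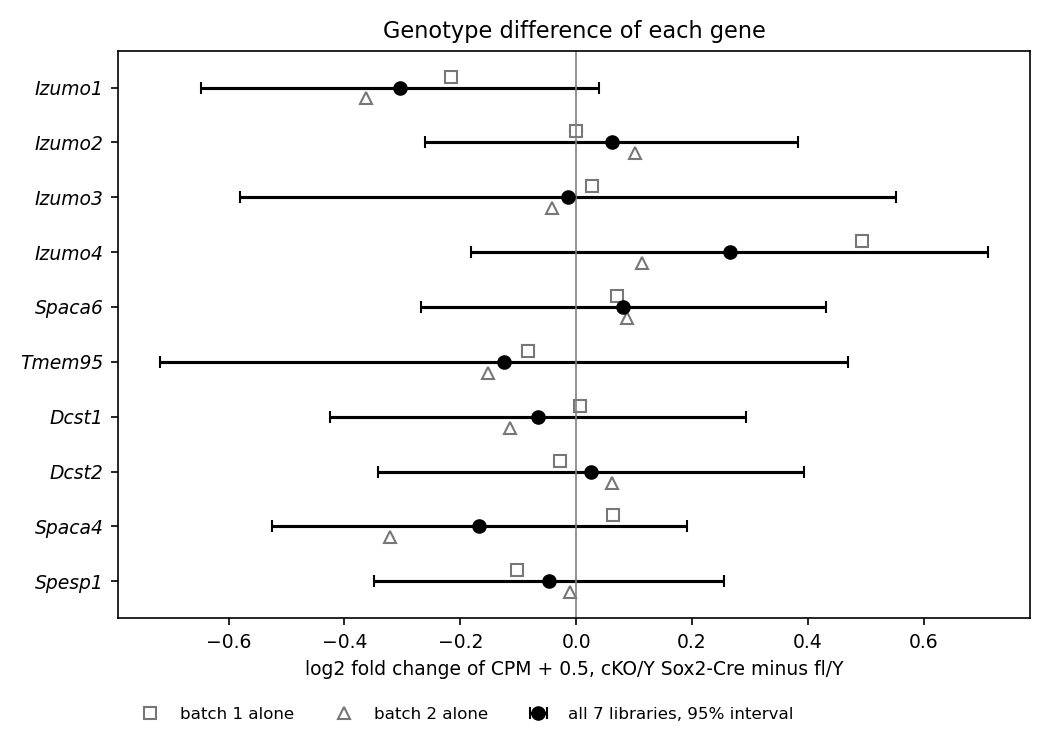
Log2 fold change of CPM + 0.5 (cKO/Y Sox2-Cre minus fl/Y) of each gene over all 7 libraries with its 95% interval from limma (black), and within each batch (open symbols). All 10 intervals include 0, and *Izumo1* and *Izumo4* lie farthest from it, at -0.30 and 0.27.

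Levels can be compared between genes only per length, and CPM were therefore divided by the kilobases of merged exons of each gene. In fl/Y testes, *Spaca4* led with 79.5 ± 16.7 CPM per kilobase (SD, n = 3), followed by *Izumo2* with 68.1 ± 7.55, *Spesp1* with 63.1 ± 3.22 and *Izumo3* with 61.7 ± 25.7. The ranges of neighbours among these 4 overlap, so that their order is not settled. By merged exons, a gap without overlap followed, and then came *Izumo1* with 21.3 ± 3.22 CPM per kilobase, *Tmem95* with 14.8 ± 5.70, *Izumo4* with 14.6 ± 4.57, *Dcst2* with 14.2 ± 4.69 and *Dcst1* with 11.2 ± 2.74, again with overlapping neighbours. *Spaca6* was last at 4.62 ± 0.845 CPM per kilobase, below every value of *Dcst1*. The order of the 4 highest genes and of the 2 lowest was the same in cKO/Y Sox2-Cre testes.

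The places of several genes, among them *Spaca6* and *Izumo4*, and the gap below the 4 highest genes, depended on the length used. By longest transcript, *Dcst1* had rank 6 in fl/Y with 25.1 CPM per kilobase, and *Tmem95* rank 8 with 14.8. By merged exons their ranks were 9 and 6. *Spaca6* stayed last by longest transcript, with 8.02, and the gap below the 4 highest genes stayed. The merged exons of *Spaca6* come to 7067 bases over 16 transcripts, while its longest coding sequence is 1017 bases. By coding length *Spaca6* was at 32.1 CPM per kilobase in fl/Y, above *Dcst1* with 26.7, *Dcst2* with 15.4 and *Tmem95* with 14.8. *Spesp1* and *Spaca4* were then highest, with 160 and 148 CPM per kilobase, and *Izumo1* was sixth in fl/Y with 53.5. *Izumo4* came just above it with 59.9, and its fl/Y libraries, from 39.9 to 77.1, overlapped those of *Izumo2*, from 76.7 to 95.4, so that the gap closed. Which transcripts the testis uses was not measured at this level.

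**Figure D3:**
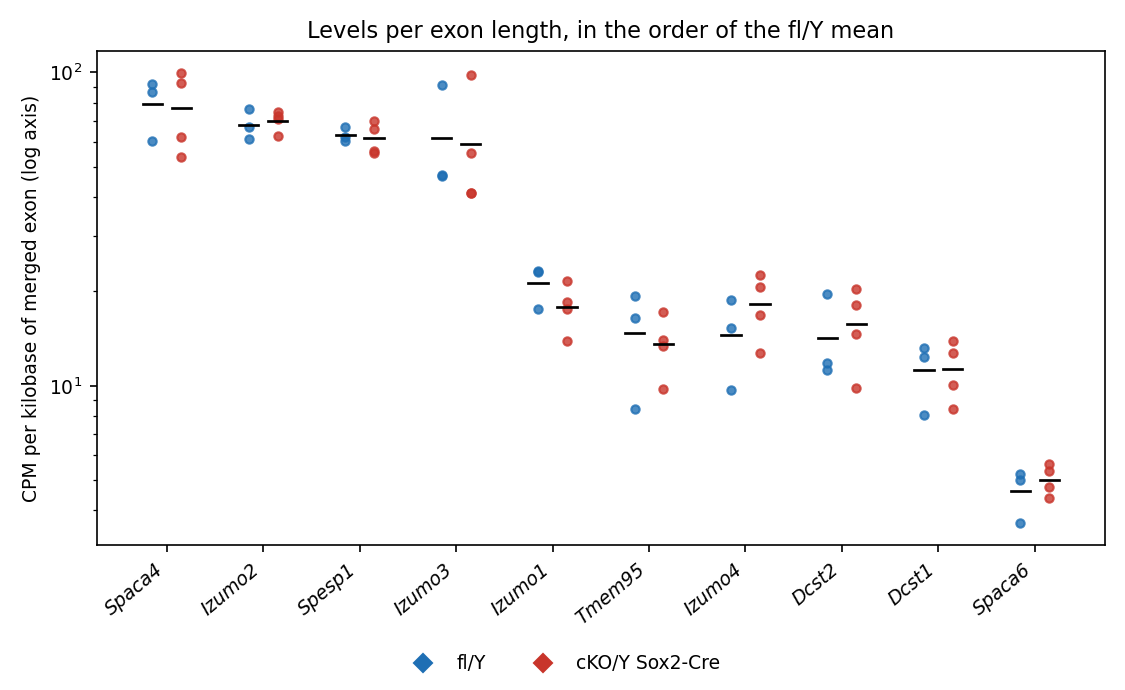
CPM per kilobase of merged exon (log axis) of the 10 genes in each fl/Y (blue points) or cKO/Y Sox2-Cre (red points) library, with bars for the means, ordered by the fl/Y mean. The 4 genes on the left, between 61.7 and 79.5 in fl/Y, are separated from the next 5, between 11.2 and 21.3, and *Spaca6* is last at 4.62.

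Part of the spread between libraries ran with the batch. The share of mitochondrial genes also separated the batches, at 9.31%, 5.88% and 8.69% in fl/Y replicate 3 and cKO/Y Sox2-Cre replicates 3 and 4 of batch 1 against 12.7% to 21.4% in the 4 libraries of batch 2, and its part in the differences between batches was not tested. The batch term of the same fit, read after the data were seen as batch 2 minus batch 1, was negative for 8 of the 10 genes. The share of all genes with a negative term was not counted. The batch term called 1 of the 10, *Dcst2*, beside 7.06% of all genes tested, of which 698 were lower and 672 higher in batch 2. Of the 10, 3 had an unadjusted p under 0.05, beside 24.8% of all. The ranges of the batches did not overlap for 4 of 10 genes (*Spaca6*, *Dcst1*, *Dcst2* and *Spaca4*), beside 23.6% of all genes tested. Whether the shares of the 10 differ from those of all genes was not tested. *Dcst2* was at 44.3 ± 2.62 CPM (SD, n = 3) in batch 1 and 27.2 ± 4.62 CPM (SD, n = 4) in batch 2, a log2 difference of -0.70 (standard error 0.17, adjusted p = 0.0273 from limma). *Spaca4* was at 66.7 ± 3.04 and 46.5 ± 10.2 CPM (log2 difference -0.57, adjusted p = 0.0545 from limma), and *Dcst1* at 69.5 ± 3.11 and 51.0 ± 10.1 CPM (log2 difference -0.47, adjusted p = 0.0981 from limma). The call of *Dcst2* was lost on leaving out fl/Y replicate 1 or 3 or cKO/Y Sox2-Cre replicate 2, 3 or 4, with adjusted p of 0.0664, 0.184, 0.071, 0.134 and 0.0699 from limma in that order, and over all alternatives tried for it the adjusted p ran from 0.00306 to 0.184.

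The libraries also differed in how the level of a gene ran with the GC content of its transcript. Over the 19363 genes with a GC value, the slope of the centred log2 level was -0.41 per 10 GC points in cKO/Y Sox2-Cre replicate 2 and -0.30 in fl/Y replicate 1, and 0.38, 0.19 and 0.15 in cKO/Y Sox2-Cre replicates 3 and 4 and fl/Y replicate 3, the libraries of batch 1. It was -0.060 in fl/Y replicate 2 and 0.046 in cKO/Y Sox2-Cre replicate 1. The longest transcripts of the 10 genes range from 41.0% GC in *Izumo3*, through 45.0% in *Spaca6*, 45.3% in *Spesp1* and 50.6% in *Izumo2*, to 58.3% in *Izumo1* and 60.1% in *Spaca4*. *Izumo3*, with the least GC, was 0.79 and 0.69 above its mean on the log2 scale in cKO/Y Sox2-Cre replicate 2 and fl/Y replicate 1. In the same 2 libraries *Spaca4*, with the most GC, was at -0.50 and -0.33, *Izumo4* at -0.34 and -0.72, *Dcst1* at -0.38 and -0.44, and *Tmem95* at -0.44 and -0.64. Not every gene followed the trend, since *Spaca6*, with the second lowest GC, was also below its mean, at -0.14 and -0.39. *Izumo1*, with the second highest GC, was on the side of the trend but nearer its mean than *Spaca4*, at -0.12 in both. The correlation of GC content and centred level over the 10 genes was -0.778 in cKO/Y Sox2-Cre replicate 2 and -0.607 in fl/Y replicate 1. It was between 0.584 and 0.709 in the 3 libraries of batch 1. In the other libraries of batch 2 it was 0.455 (fl/Y replicate 2, where the slope over all genes was negative) and 0.063 (cKO/Y Sox2-Cre replicate 1). These points share a library, so the values are descriptions.

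**Figure D4:**
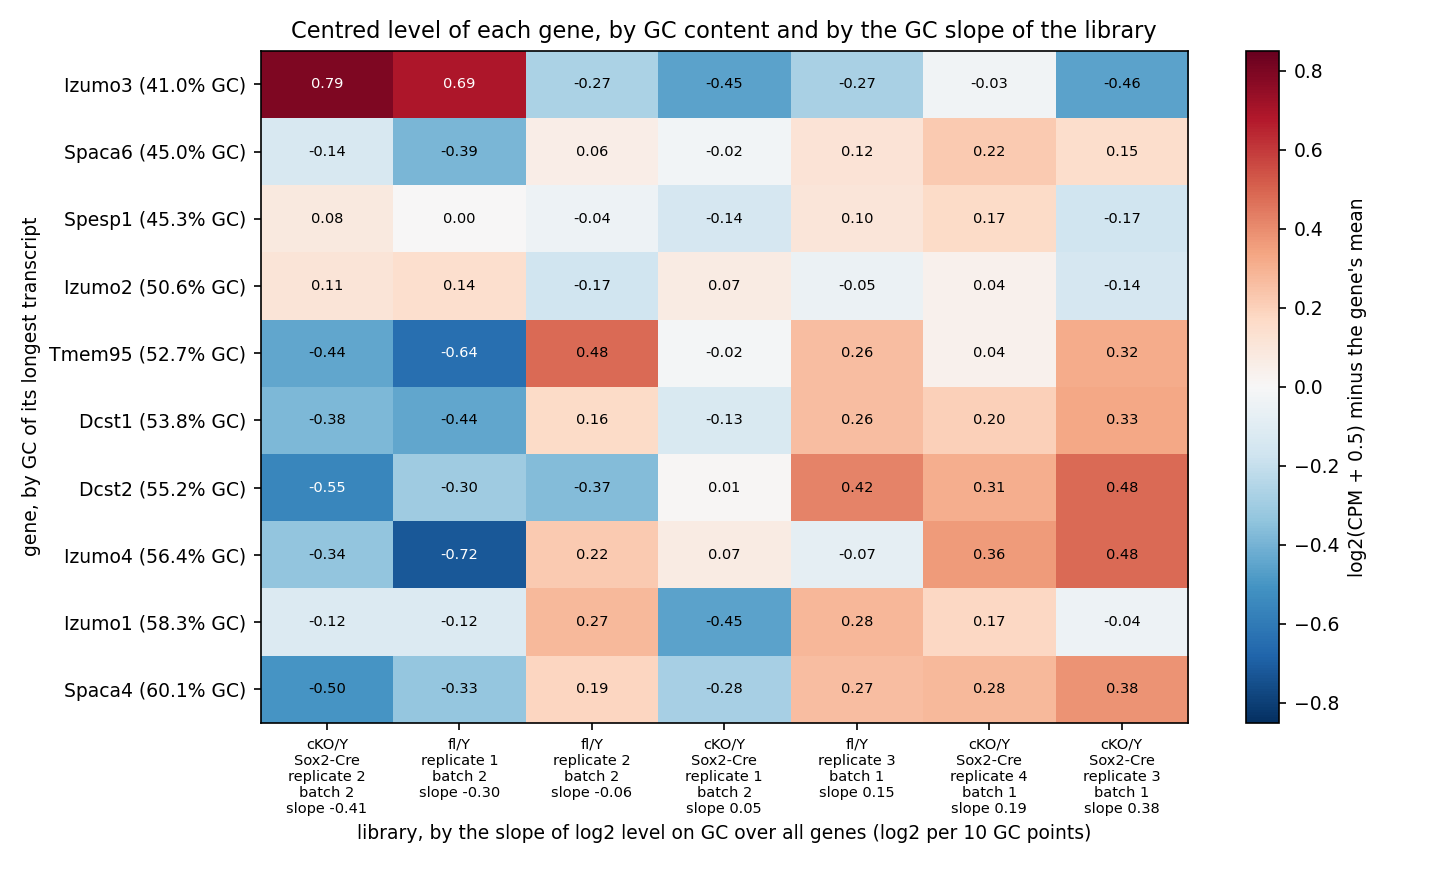
Log2(CPM + 0.5) minus the mean of the gene over 7 libraries, for the 10 genes from low GC (top) to high GC (bottom) and for the libraries from the most negative (left) to the most positive (right) slope of level on GC over all genes. In the 2 libraries on the left *Izumo3* is raised by 0.79 and 0.69 while the genes from *Tmem95* down are below 0, and in the 3 on the right most of those genes are above 0.

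A correction that takes the GC trend out of each library, added after the data were seen, narrowed the spread of some genes and not of others. The range over the 7 libraries on the log2 scale went from 1.25 to 0.879 for *Izumo3*, from 1.20 to 0.736 for *Izumo4*, from 0.772 to 0.456 for *Dcst1* and from 0.882 to 0.606 for *Spaca4*. For *Izumo1* it went from 0.735 to 0.837, for *Spaca6* from 0.612 to 0.771 and for *Izumo2* from 0.310 to 0.463, while that of *Spesp1* was 0.333 both times. With the correction the batch difference of *Dcst2* was -0.43 (adjusted p = 0.115 from limma), and 0 of 10 genes were called between batches, beside 3.41% of all genes tested. At an unadjusted p under 0.05 there were then 2 of 10, beside 18.0% of all. The batch difference of *Spaca6* grew with the correction, from -0.27 (unadjusted p = 0.118 from limma) to -0.40 (unadjusted p = 0.0192, adjusted p = 0.178 from limma). The correction used the GC content of the longest annotated transcript, of which *Spaca6* has 16 to choose from and *Izumo4* 13. Which of them the testis uses was not measured, so the GC value of these genes may not be that of their RNA. By genotype 0 of 10 were called after the correction, where 1 of all genes was, and *Izumo1* had an unadjusted p of 0.0428 and an adjusted p of 1.00 from limma. What makes the libraries differ in their GC slope was not tested.

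**Figure D5:**
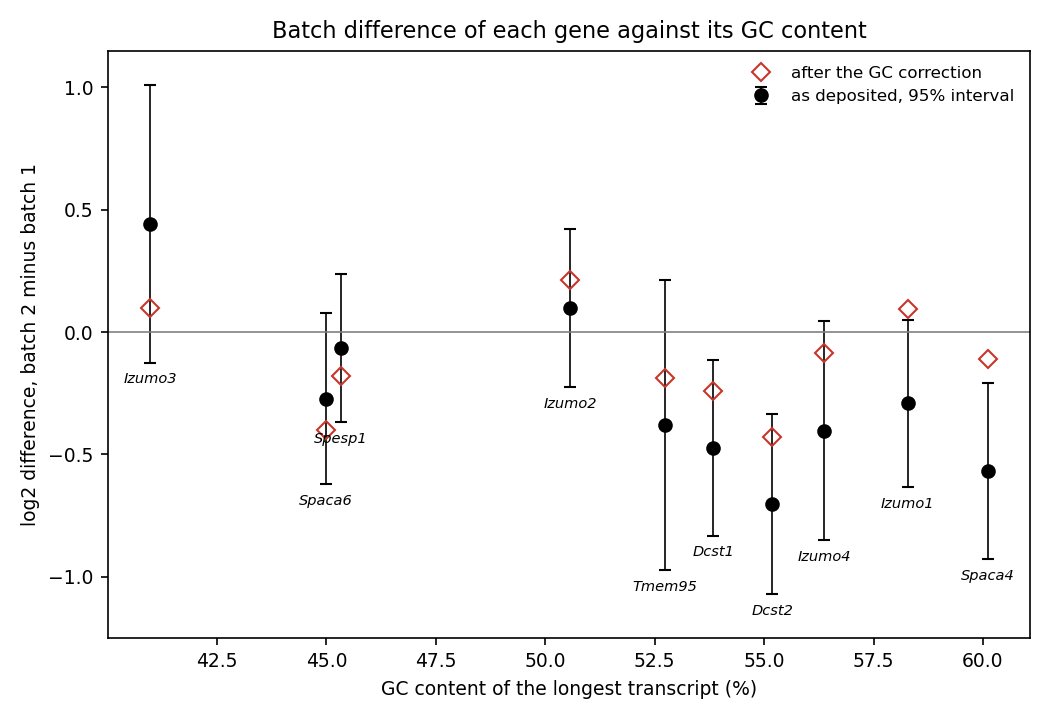
Log2 difference of each gene between the batches (batch 2 minus batch 1) against the GC content of its longest transcript, as deposited with the 95% interval from limma (black) and after the GC correction (red diamonds). *Dcst2* lies farthest from 0, at -0.70, and *Izumo3*, at 0.44, is the highest; after the correction these are -0.43 and 0.099.

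Markers of the germ cells ran with the libraries as well. The summed level of 11 genes of elongating spermatids was 11284, 12654 and 15776 CPM in fl/Y replicates 1 to 3 and 11838, 10845, 17411 and 15834 CPM in the cKO/Y Sox2-Cre replicates 1 to 4. In this sum the 3 libraries of batch 1 were thus above the 4 of batch 2, as for *Dcst1*, *Dcst2*, *Spaca4* and *Spaca6*. Not every gene of the list did so. *Odf2* was at 3407 to 3549 CPM in batch 1 and 1419 to 2307 CPM in batch 2. *Odf1*, *Prm1*, *Prm2*, *Prm3* and *Tnp2* were likewise separated, while the ranges of *Akap4*, *Tnp1*, *Smcp*, *Oaz3* and *Hils1* overlapped between batches. The sum of 12 genes of round spermatids lay between 1990 and 2144 CPM in all libraries, and that of 12 genes of spermatocytes between 2123 and 2854 CPM. Single genes of round spermatids separated the batches in both directions. *Tssk1* and *Tssk2* were higher in every library of batch 1, while *Crem*, *Catsper3* and *Actl7b* (at most 7.81 CPM) were lower. The ranges of the others overlapped. Averages over the genes of a list were taken as log2(CPM + 0.5) minus the mean of each gene. They overlapped for round spermatids, from -0.16 to 0.026 in batch 1 and from -0.020 to 0.11 in batch 2. The spermatocyte genes ran the other way from the elongating spermatid sum. They were from -0.45 to -0.069 in batch 1 and from 0.055 to 0.29 in batch 2. *Sycp1*, *Sycp2*, *Sycp3*, *Dmc1*, *Hormad1* and *Mlh3* were lower in every library of batch 1. *Hspa2* was higher there, at 1150 to 1163 CPM against 574 to 1009 CPM in batch 2. *Aurkc* was also higher, at 10.6 to 15.1 against 7.77 to 9.09 CPM. The ranges of *Spo11*, *Msh4*, *Piwil1* and *Ccna1* overlapped. On the averaged log2 scale the Leydig cell genes were from 0.12 to 0.77 in batch 1 and from -0.43 to -0.13 in batch 2. Their sums overlapped between batches. A single gene of this list, *Insl3*, separated the batches, at 51.5 to 119.4 CPM in batch 1 and 1.12 to 6.26 CPM in batch 2. The ranges of every other Leydig cell gene overlapped between batches. The part of cell numbers in the values of the 10 genes was not tested. By genotype, 0 of 12, 0 of 12 and 0 of 11 genes of spermatocytes, round and elongating spermatids had an unadjusted p under 0.05 in limma, with medians of -0.056, -0.067 and -0.0092. The gene of highest CPM, not divided by length, in each of these lists was *Hspa2* (850 and 975 CPM in fl/Y and cKO/Y Sox2-Cre), *Hook1* (623 and 566 CPM) and *Odf2* (2380 and 2700 CPM), in that order.

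Markers of the other cells of the testis were present in both genotypes. The summed markers of spermatogonia lay between 73.9 and 122.5 CPM, with *Kit* at the highest CPM (19.4 and 25.5 CPM in fl/Y and cKO/Y Sox2-Cre), and those of Sertoli cells between 473 and 858 CPM, with *Clu* highest (381 and 436 CPM). Leydig cell markers lay between 431 and 769 CPM with *Cyp17a1* (232 and 246 CPM), peritubular myoid markers between 73.4 and 121.9 CPM with *Myh11* (50.8 and 53.2 CPM), and macrophage markers between 66.0 and 92.9 CPM with *Mrc1* (49.2 and 47.1 CPM). At an unadjusted p under 0.05 in limma, 265 of all 19400 genes tested were lower and 236 higher. Of 9 genes of spermatogonia 1 was lower (*Stra8*, log2 fold change -0.55) and 1 higher (*Ccnd2*, 0.74). Of 13 genes of Sertoli cells 1 was lower (*Rhox5*, -0.55), and of 7 of Leydig cells 2 were lower (*Hsd3b6*, -1.27, and *Star*, -0.33). *Insl3* of the Leydig cell list went the other way, at 0.69 (unadjusted p = 0.0879 from limma), and the median of that list was 0.052. None of 5 myoid and 5 macrophage genes was on either side. None of these lists held a gene at an adjusted p under 0.05. Of 6 genes of the epididymis, the duct that receives the sperm, 1 was in the table, *Rnase10*, at 0 to 2.83 CPM.

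No other gene of the same steps passed the test either, each with an adjusted p of 1.00 from limma. Of 5 further genes of fusion, 0 had an unadjusted p under 0.05 in limma, 4 of 5 were below 0, and the median log2 fold change was -0.18. The lowest p were those of *Fimp*, needed for fusion in mouse sperm, at 14.9 ± 3.41 and 12.0 ± 4.36 CPM in fl/Y and cKO/Y Sox2-Cre (log2 fold change -0.40), and of *Frey1*, which acts in the assembly of IZUMO1 complexes, at 18.0 ± 1.07 and 15.7 ± 2.71 CPM (log2 fold change -0.21). Of 13 genes of zona binding and of the chaperones that prepare its proteins, 0 had an unadjusted p under 0.05, with a median of -0.024. Their lowest p were those of *Ly6k* (log2 fold change -0.31) and *Prss37* (log2 fold change -0.21), both needed for the ADAM3 protein of sperm. Of 14 genes of the acrosomal matrix and membrane it was again 0, with a median of -0.029, led by *Spaca7* (log2 fold change -0.21) and *Cd46* (log2 fold change -0.26). On the egg side 1 of 6 partner genes was in the table, the tetraspanin gene *Cd9*, at 1.28 ± 0.960 and 1.37 ± 0.958 CPM in fl/Y and cKO/Y Sox2-Cre.

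Over the 7 libraries the 10 genes did not follow a single profile. The closest pair was *Dcst1* and *Spaca4*, whose centred log2 levels differed by a root mean square of 0.0927, and the head-to-head pair *Dcst1* and *Dcst2* differed by 0.243. *Izumo3* was the farthest from 8 of the other 9 genes, up to 0.840 from *Tmem95*. Among 9368 genes above a mean of 10 CPM, those nearest to the mean profile of the 10 were *Tln2* (0.0473), *Bap1* (0.0473) and *Ttc16* (0.0476), where the median over these genes was 0.280. The mean profile was at -0.21, 0.053 and 0.13 in fl/Y replicates 1 to 3 and at -0.14, -0.15, 0.13 and 0.18 in cKO/Y Sox2-Cre replicates 1 to 4, with the 3 libraries of batch 1 above the 4 of batch 2.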

How the data were processed

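RNA-seq of total testis was deposited as 1 table of 19719 genes in 7 libraries. The signal in it is CPM, calculated by the authors with a scaled library size. The submitters' processing notes name HISAT2 2.1.0, featureCounts and edgeR with GRCm38, whereas TopHat and HTSeq stand in the methods. Reads were not aligned again. Every value (100%) was a whole number of reads, with a tolerance of 0.01 reads, and the scaling equalled TMM factors. Genes above 1 CPM in 3 or more libraries were tested by limma 3.58.1 (R 4.3.3) on log2(CPM + 0.5), with a variance trend and the labelled batch in the model. Tests were two-sided, with Benjamini-Hochberg adjustment over 19400 genes and a threshold of 0.05. The method was tested on simulated data.

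The 10 genes and all lists were chosen with earlier results of these data known. Named besides are *Rlim*, the 2 genes of lowest p of each list of gamete binding (and any under an unadjusted p of 0.05), the gene of highest CPM of each cell type list, and the 3 nearest profiles. *Rasip1*, *Gm10702*, *Fam83e* and the microRNA genes were named for their overlap with the 10. GC content, lengths and exon overlaps came from GENCODE M21, promoters from RefSeq GRCm38.p6. Tried as 19 alternatives were pseudocounts of 0.1 and 1 CPM, other filters, unscaled totals, edgeR 4.0.16 and DESeq2 1.42.0 on recovered reads, no batch, a replicate block, each batch, each library left out, and, added after the data were seen, a GC correction (a lowess trend per library). The batch difference was also examined only then.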

Additional observations from a re-analysis of the deposited data

How the results depend on the processing

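In 19 alternatives 0 of the 10 genes were called between genotypes, and the lowest adjusted p from limma was 0.785 (*Izumo1*, without cKO/Y Sox2-Cre replicate 2). Leaving batch 1 alone aside, 1 of 10 stood at an unadjusted p under 0.05 in limma in 3 of the alternatives. These were the GC correction and the fits without fl/Y replicate 2 or without cKO/Y Sox2-Cre replicate 2. The share of all genes under that threshold was not counted in these fits, so whether 1 of 10 is more than that share is not known. Over all genes, 1 was called; the count was 0 without the batch, 28 in batch 1 alone, 0 in batch 2 alone, and 0 to 3 with each library left out. The replicate block called 0 genes. Whether equal replicate numbers mark pairs was not settled by the check. Deviations from the genotype means correlated at 0.101, 0.066 and 0.392 for equal numbers 1 to 3. There fl/Y replicate 1 correlated best with cKO/Y Sox2-Cre replicate 2 (0.474). For fl/Y replicates 2 and 3 the equal number was highest, beside at most 0.049 and 0.359 for other numbers. These deviations still held the batch difference, so the check cannot tell pairs from batches.

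Differences near 0 changed sign, none of them called. *Dcst1* was at 0.013 without the batch. In batch 1 alone *Izumo3* was at 0.028, *Dcst1* at 0.0073, *Dcst2* at -0.028 and *Spaca4* at 0.064. *Izumo3* was at 0.037 in edgeR, 0.034 in DESeq2 and 0.025 after the GC correction, where *Dcst2* was at -0.0034. With each library left out, *Izumo3* ran from -0.32 to 0.31, *Dcst1* from -0.20 to 0.097, *Dcst2* from -0.12 to 0.16, *Tmem95* from -0.40 to 0.16, *Izumo2* from -0.026 to 0.13, *Spaca6* from -0.031 to 0.19 and *Spesp1* from -0.11 to 0.015. *Izumo1* and *Izumo4* kept their sign in 19 of 19.

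Between batches 1 of the 10 and 1370 of all genes were called, 3 and 2319 with unscaled library totals, 0 and 660 after the GC correction, and 0 to 3 and 73 to 3030 with each library left out. The causes of these changes were not tested. In batch 1 alone a single fl/Y library stands for its genotype, and its spread is assumed to be that of the others. Depth limits *Tmem95* most, at 23 to 74 reads.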
